A study of Mus musculus with 20 samples.

Results

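Inguinal subcutaneous fat of mice surrounds a lymph node, and a piece of the depot can be sequenced with or without it. The 20 libraries of inguinal fat described here were put into groups chosen by the measured FPKM of a single gene, Glycam1, which encodes a mucin-like glycoprotein made by high endothelial venules of lymph nodes. Libraries with at least 20 FPKM of Glycam1 formed one group, of 13 of the 20 libraries, and libraries under 5 FPKM formed the other, of 7. FPKM scales the fragments of a transcript to its length and to the mapped reads of the library, so each value is relative to all other transcripts. No library fell between the 2 limits. The nearest library inside the upper limit was diestrus-2 with 23.7 FPKM of Glycam1, and the nearest inside the lower one was estrus-2 with 3.74 FPKM.

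The mice were 8-week-old female C57BL/6 animals, 5 at each of the 4 stages of the estrous cycle (proestrus, estrus, metestrus and diestrus), and each gave 1 library of mRNA enriched from the total RNA of fat. No animal carried a genetic change or received a treatment according to the labels. The groups are therefore not groups of the study, and the labels do not say which pads held a node. The libraries with Glycam1 were 4 from proestrus, 2 from estrus, 3 from metestrus and 4 from diestrus, and those without it were proestrus-2, estrus-1, estrus-2, estrus-4, metestrus-3, metestrus-4 and diestrus-5. The exact permutation test of the chi-square statistic for an uneven spread over the stages gave p = 0.742. The table holds FPKM and no read counts, so no counting interval is given for single values.

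Lymph nodes hold B cells in follicles and T cells in the paracortex, and both are held in place by stromal cells that secrete chemokines. Cxcl13 draws B cells to follicles, and Ccl19 and Ccl21a draw T cells and dendritic cells through the receptor Ccr7. Lymphocytes enter from blood through high endothelial venules, whose sulphated glycoproteins they bind, and macrophages in the sinuses take up particles from lymph. Lymphotoxin signalling through non-canonical NF-kappaB keeps this organisation in place.

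The promoter windows of the gene that set the groups and of 2 stromal chemokines are shown because these genes rose together across the libraries. Each runs from 250 bases before to 50 bases after the annotated start in RefSeq (GRCm38.p6). Glycam1 lies at chr15:103565032-103565331 on the minus strand, Ccl19 at chr4:42756316-42756615 on the minus strand and Cxcl13 at chr5:95956689-95956988 on the plus strand. Capitals mark a match to the TATA box TATAAA, to the ETS motif CCGGAAG or to the kappaB consensus, each searched on both strands.
Glycam1: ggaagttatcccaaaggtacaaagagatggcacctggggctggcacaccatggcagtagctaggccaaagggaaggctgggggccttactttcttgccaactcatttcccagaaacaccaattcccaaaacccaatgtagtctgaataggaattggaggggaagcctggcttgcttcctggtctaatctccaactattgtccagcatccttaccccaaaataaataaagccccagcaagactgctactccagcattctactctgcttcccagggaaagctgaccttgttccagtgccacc
Ccl19: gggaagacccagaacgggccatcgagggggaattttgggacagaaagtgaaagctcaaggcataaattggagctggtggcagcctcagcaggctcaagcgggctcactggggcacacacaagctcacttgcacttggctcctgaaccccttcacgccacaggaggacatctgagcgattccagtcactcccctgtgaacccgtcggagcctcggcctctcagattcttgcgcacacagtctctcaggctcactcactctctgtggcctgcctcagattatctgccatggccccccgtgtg
Cxcl13: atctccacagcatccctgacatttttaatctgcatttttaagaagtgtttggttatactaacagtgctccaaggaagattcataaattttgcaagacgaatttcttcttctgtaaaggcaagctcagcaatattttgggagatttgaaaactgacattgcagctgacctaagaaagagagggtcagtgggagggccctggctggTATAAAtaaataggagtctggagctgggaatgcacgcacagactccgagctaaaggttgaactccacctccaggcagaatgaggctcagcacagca
The 1 match in the 3 windows was the TATA box of Cxcl13. Over 32851 promoter windows of the same length, 13.6% held TATAAA, 8.86% held CCGGAAG and 4.51% held the kappaB consensus. The kappaB consensus was found in 5.17% of windows of all tested genes, in 5.87% of windows of the genes that rose and in 5.98% of windows of those that fell, and CCGGAAG in 17.2%, 13.1% and 5.98%. A gene can have several windows, and these shares describe letters in the windows only.

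The markers of the node separated the libraries much as Glycam1 did. Glycam1 itself ranged from 23.7 to 171 FPKM in the 13 libraries, with a median of 102 FPKM, and was listed at 0 in 4 of the 7 others. Because it chose the groups, its difference of 6.24 on the log2(FPKM + 1) scale is a description. Ccl21a was at 42.2, 155 and 323 FPKM (lowest, median, highest) with Glycam1 and at 0.433, 4.56 and 8.67 FPKM without it, a difference of 4.87 ± 0.41 (SE) on the log2(FPKM + 1) scale (adjusted p = 5.16e-07). This and every other adjusted p for a gene comes from limma, with stage in the model. Cd79a, a subunit of the B cell receptor, was at 7.28, 58.0 and 97.6 FPKM against 0.0306, 0.298 and 3.48 FPKM (log2 difference 5.09 ± 0.39, adjusted p = 1.99e-07), and Cd3g, a subunit of the T cell receptor complex, at 2.77, 14.3 and 24.2 FPKM against 0.158, 0.288 and 0.728 FPKM (3.33 ± 0.30, adjusted p = 9.92e-07). None of these 3 genes overlapped between the groups. Cxcl13 was at 7.49, 56.5 and 107 FPKM against 0.912, 2.72 and 7.497 FPKM (4.14 ± 0.40, adjusted p = 1.63e-06), and it overlapped at one point, since estrus-4 reached 7.497 FPKM and diestrus-2 had 7.487 FPKM. Among the 7 libraries without Glycam1, estrus-2 was highest for Glycam1, Cd79a and Cd3g. The 4 other markers thus follow the split by Glycam1.

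**Figure D1:**
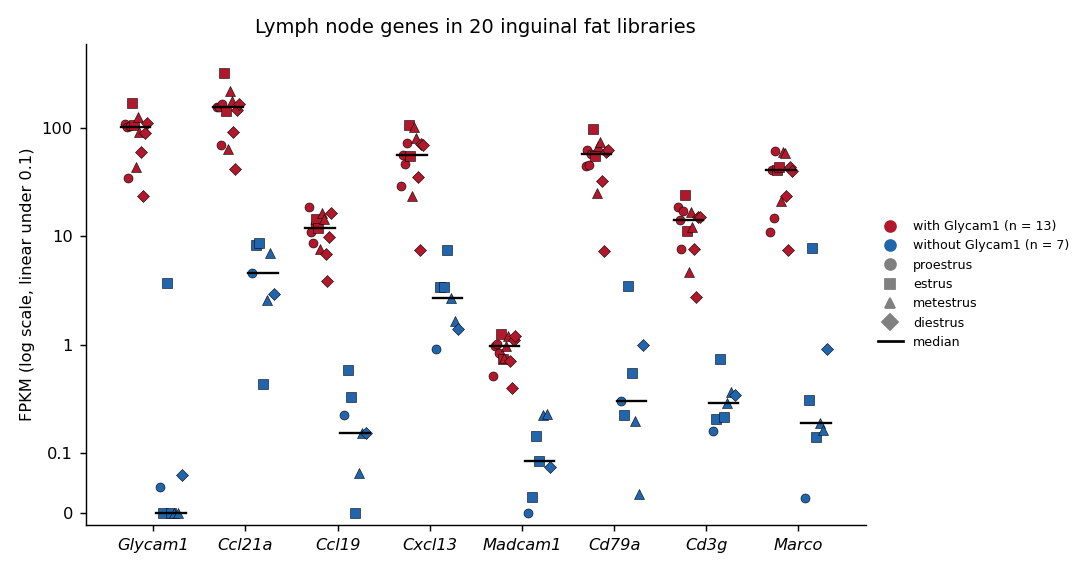
FPKM (vertical axis, logarithmic above 0.1) of 8 lymph node genes in each of the 20 libraries, with red points for the 13 libraries with Glycam1, blue points for the 7 without it, point shapes for the stage and a bar at each median. The groups are apart for every gene but Cxcl13 and Marco, where 1 library of each group meets the other.

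Across the transcriptome, many genes rose and fewer fell with Glycam1. Of 13986 genes tested, Glycam1 left out, 1771 were higher in the libraries with Glycam1 (12.7%) and 734 were lower (5.25%) at an adjusted p under 0.05. These shares are the background for the counts by list below. Of the 1771, 478 (27%) were under 1 FPKM in all 7 libraries without Glycam1, against 3.85% of all genes tested. They passed the filter on low values only through the other group, so their calls are not independent of the groups. Among genes named here, they include Cd3g, Madcam1, Ccl19, Tnfsf11, Il7, Ch25h, Fcer2a, Cr2, Lta, Tnfsf14, Flt3, Apol7c, Il22ra2, Dsc3 and Cxcr2. Cd3d, Cd8b1, Ctla4, Itgae, H2-Ob and Gcsam belong to them as well. The counts by list below hold such genes, so these counts are not independent of the groups either. Of the genes tested, 352 were higher without overlap between the groups (2.52%) and 20 were lower without overlap (0.143%). The median difference was 0.71 for the genes that rose and -0.39 for those that fell, against -0.00070 over all genes tested. Genes that rose made up 9.76% to 19.1% of all FPKM in libraries with Glycam1 and 8.32% to 11.9% in the others. Genes that fell made up 1.55% to 2.36% and 2.28% to 3.36%. A test of whether the difference varied among stages called 1 gene of 13987 (0.00715%). Since the groups were formed from a measured gene, these calls describe which genes went with Glycam1, and in bulk tissue more cells of a type and more RNA per cell cannot be told apart.

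**Figure D2:**
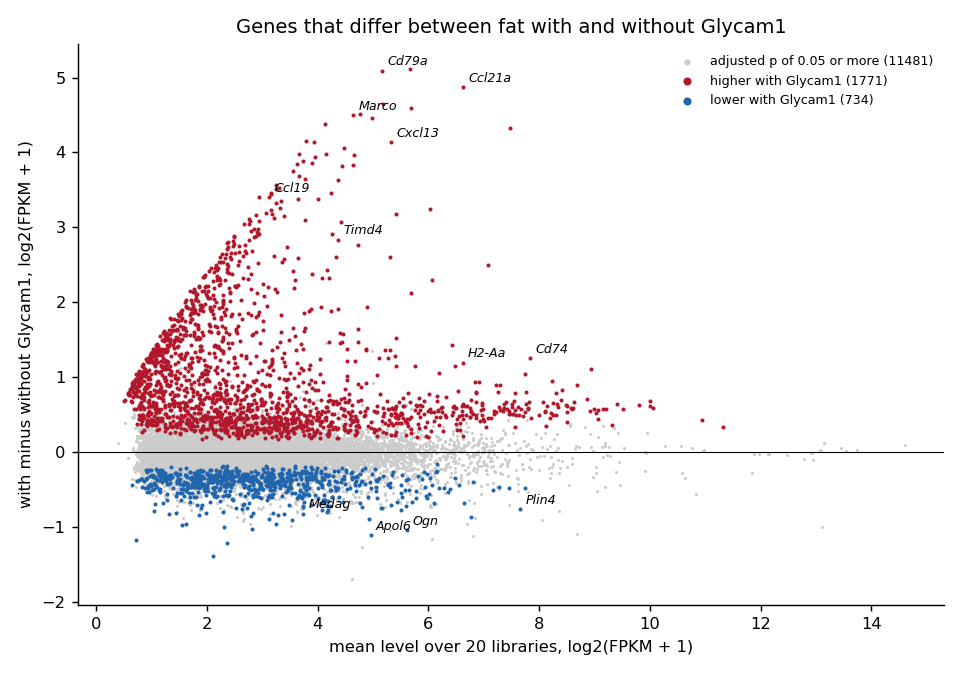
Difference between libraries with and without Glycam1 (vertical axis, log2(FPKM + 1)) against the mean level over 20 libraries (horizontal axis, log2(FPKM + 1)), 1 point per tested gene, red for the 1771 genes that were higher, blue for the 734 that were lower and grey for the rest. Rises reach 5.11 on this scale, and falls reach -1.39.

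Of the other high endothelial venule genes, 3 of the 5 tested rose and none fell, against 12.7% and 5.25% of all genes tested. Madcam1, the mucosal addressin bound by integrin alpha4beta7 on lymphocytes, was at 0.401, 0.964 and 1.26 FPKM with Glycam1 and at 0, 0.0865 and 0.230 FPKM without it (log2 difference 0.79 ± 0.10, adjusted p = 3.86e-05). The others that rose were Gcnt1, which builds branches of O-glycans (0.98 ± 0.19, adjusted p = 0.0016), and Chst2, a sulphotransferase (0.43 ± 0.11, adjusted p = 0.00858), and both overlapped between the groups. Enpp2, the autotaxin gene (0.30 ± 0.12, adjusted p = 0.0888), and B3gnt3, which extends core glycans (-0.29 ± 0.12, adjusted p = 0.104), did not pass the test. Chst4, which sulphates venule glycoproteins, lay below the filter on low values, yet it was at 0.154 to 1.33 FPKM in the 13 libraries and was listed at 0 in 6 of the 7 others, where estrus-4 had 0.0182 FPKM. Fut7, a fucosyltransferase of the same glycoproteins, was also below the filter, at 0.0589 to 0.880 FPKM against 0.00874 to 0.128 FPKM.

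Genes of node stroma and homeostatic chemokines were mostly higher with Glycam1. Of 9 genes tested, 7 were higher and none was lower, with a median log2 difference of 1.31. Ccl19 was at 3.90, 11.99 and 18.8 FPKM with Glycam1 and at 0, 0.154 and 0.584 FPKM without it (3.41 ± 0.22, adjusted p = 3.35e-08). No library of one group reached the other. Tnfsf11, which encodes the cytokine RANKL, was listed at 0 in 4 libraries without Glycam1 and was at 0.398 to 3.64 FPKM in those with it (1.31 ± 0.20, adjusted p = 0.000183). Bst1, an ectoenzyme of stromal cells that support B cells, was at 1.73 to 5.80 FPKM against 0.473 to 1.47 FPKM (1.36 ± 0.19, adjusted p = 6.19e-05). Ch25h, an enzyme that makes 25-hydroxycholesterol for the guidance of B cells, and Il7, a survival cytokine of lymphocytes, had smaller differences of 0.79 ± 0.17 (adjusted p = 0.00317) and 0.51 ± 0.14 (adjusted p = 0.0187). Pdpn, the surface protein podoplanin of reticular fibroblasts and lymphatic vessels (-0.37 ± 0.22, adjusted p = 0.264), and the lymphotoxin receptor Ltbr (-0.21 ± 0.11, adjusted p = 0.215) did not pass the test.

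The level of Ccl21a rests on how reads were assigned among near-identical copies. Ccl21b, Gm13304, Gm21541 and Gm10591, all on chromosome 4, had medians of 7.66 to 8.00 FPKM with Glycam1 and of 0.717 to 0.753 FPKM without it. Their log2 differences were 2.20 to 2.23. The pseudogenes Ccl19-ps1 and Ccl19-ps3 had differences of 1.70 and 2.22, so their reads and those of Ccl19 may not be separable either. These 6 copies were named after their values had been seen.

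In the follicular dendritic cell list, 2 of the 4 genes tested rose, both of which B cells also express. Fcer2a, the low-affinity receptor for IgE, was at 1.71 to 26.1 FPKM against 0 to 0.700 FPKM (3.51 ± 0.36, adjusted p = 2.84e-06), and Cr2, the complement receptor CD21, at 0.653 to 8.11 FPKM against 0 to 0.278 FPKM (2.09 ± 0.28, adjusted p = 4.15e-05). Mfge8, a bridge for uptake of dying cells (0.12 ± 0.15, adjusted p = 0.647), and the Fc receptor Fcgr2b, also a B cell gene (0.03 ± 0.22, adjusted p = 0.943), did not pass the test. None of the 5 lymphatic endothelial genes tested was called in either direction. Mmrn1 (0.59 ± 0.25, adjusted p = 0.11), Ackr4, a scavenger of Ccl19 and Ccl21 (0.28 ± 0.13, adjusted p = 0.169), and the hyaluronan receptor Lyve1 (0.05 ± 0.39, adjusted p = 0.955) overlapped widely. Prox1, the transcription factor that specifies these vessels, was below the filter, at 0.128 to 1.21 FPKM with Glycam1 and at 0.0494 to 0.239 FPKM without it.

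Lymphocyte genes were among the largest rises. All 18 B cell genes and all 18 T cell genes tested rose, with median log2 differences of 3.10 and 2.48, and the plasma cell list had 4 of 5 higher. Of these, 11 of the B cell and 16 of the T cell genes were under 1 FPKM in all 7 libraries without Glycam1, against 3.85% of all genes tested, and so passed the filter on low values only through the other group. Ms4a1, the CD20 antigen, went from a median of 0.0954 FPKM to 24.7 FPKM (4.14 ± 0.40, adjusted p = 2.02e-06). Cd8b1, a chain of the CD8 coreceptor, went from 0.0799 to 21.7 FPKM (4.15 ± 0.32, adjusted p = 1.99e-07). Most antigen receptor segments passed the filter on low values only through the libraries with Glycam1, since 96 of the 142 immunoglobulin and 53 of the 57 T cell receptor segments tested were under 1 FPKM in all 7 others, so their calls are not counted here. Immunoglobulin segments took 0.0687% to 0.526% of all FPKM with Glycam1 and 0.0130% to 0.0422% without it. Jchain, which joins secreted IgA and IgM, overlapped between the groups (1.33, 10.5 and 42.4 FPKM against 1.16, 2.003 and 3.97 FPKM; 2.30 ± 0.43, adjusted p = 0.000881). Tnfrsf17, the plasma cell receptor BCMA, did not differ beyond its spread (0.01 ± 0.13, adjusted p = 0.963). Derl3, also of the plasma cell list, was below the filter, at medians of 0.165 FPKM with Glycam1 and 0.136 FPKM without it.

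The genes whose levels went most closely with Glycam1 over the 20 libraries included Trbc1, Cd79a, Ccl5, Cd2, Trbc2, Ighd, Cd3d, Cd8b1 and Fcmr, with Pearson coefficients of 0.985 to 0.989 on the log2(FPKM + 1) scale. These genes were picked from all genes tested by this coefficient, and Glycam1 set the groups, so the coefficients in part restate the choice and the split. Within the 13 libraries with Glycam1, which were part of that choice, the coefficients were 0.862 to 0.960. Those named are genes of lymphocytes.

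Most genes of naive and recirculating lymphocytes rose with Glycam1, while S1pr1 and Klf2 were not called. Of the 9 genes of this list 7 rose. Ccr7, the receptor of Ccl19 and Ccl21a, was at 3.91, 24.1 and 35.1 FPKM against 0.223, 0.359 and 1.37 FPKM (3.86 ± 0.34, adjusted p = 5.9e-07). S1pr1, the receptor for exit into lymph that endothelium also expresses, was at a median of 39.4 and 33.8 FPKM (0.22 ± 0.10, adjusted p = 0.165), and Klf2, its transcription factor, at 23.0 and 22.7 FPKM (0.25 ± 0.16, adjusted p = 0.286). Genes of tissue-resident lymphocytes, regulatory T cells and innate lymphoid cells had 4 of 7 higher, among them Cxcr6 (2.19 ± 0.25, adjusted p = 9.43e-06), Ctla4 (1.52 ± 0.28, adjusted p = 0.000782) and the integrin Itgae (1.03 ± 0.17, adjusted p = 0.000306). Natural killer and cytotoxic genes had 5 of 8 higher, with Ccl5 at 8.24 to 48.8 FPKM against 0.574 to 2.47 FPKM (3.81 ± 0.28, adjusted p = 1.52e-07).

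The ratio of B to T cell genes differed between the groups, that of naive to tissue-resident genes did not pass the threshold, and both turned on a few genes. The log2 ratio of the mean FPKM of B cell genes to that of T cell genes was 1.83 ± 0.34 (SD, n = 13) with Glycam1 and 3.26 ± 0.82 (SD, n = 7) without it, a difference of -1.44 (exact permutation within stages, p = 0.0004, the smallest it can give, adjusted over 7 library-level values p = 0.0028). Ighm, the heavy chain of IgM, was at 93.2 to 291 FPKM and at 17.4 to 105 FPKM in these groups. Ighm and Ighd together took a median of 49.6% of the summed B cell list with Glycam1 and 86.0% without it. Left out, they turned the difference to 0.54 (adjusted p = 0.0518, exact permutation). The ratio of the naive to the tissue-resident list differed by 0.78 (adjusted p = 0.0504, exact permutation), and without S1pr1, Klf2, Areg and Gata3 it was 2.57 ± 0.39 (SD, n = 13) against -0.50 ± 0.53 (SD, n = 7), a difference of 3.07 (adjusted p = 0.0014, exact permutation). Both trimmed ratios were chosen after the data had been seen. S1pr1, Klf2, Areg and Gata3 were not called themselves, so the size and p of that trimmed ratio rest partly on the choice.

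Beyond the lymphocyte and stromal lists, rises were also found among genes of antigen presentation, dendritic cells, sinus macrophages and lymphotoxin. All 10 genes of antigen presentation on MHC class II rose, with a median log2 difference of 1.22. H2-DMb2, part of the editor of bound peptides, and H2-Ob, part of its inhibitor, had no overlap and differed by 3.63 ± 0.34 (adjusted p = 1.47e-06) and 3.19 ± 0.37 (adjusted p = 1.15e-05). Cd74, the invariant chain, was already at 67.3 to 191 FPKM without Glycam1, against 165 to 431 FPKM with it, and rose by 1.25 ± 0.20 (adjusted p = 0.000243). Of 11 dendritic cell genes 8 rose. Ccl22, a chemokine of mature dendritic cells, was at 3.19, 11.96 and 22.1 FPKM against 0.167, 0.205 and 1.18 FPKM (3.23 ± 0.28, adjusted p = 5.41e-07), while Flt3, the receptor of their precursors, was at 0.378 to 3.04 FPKM against 0.0305 to 0.310 FPKM (1.15 ± 0.19, adjusted p = 0.000356). Apol7c (3.98 ± 0.35, adjusted p = 7.14e-07) and Il22ra2, the soluble receptor that binds IL-22 (3.88 ± 0.45, adjusted p = 1.09e-05), were also among the 12 largest rises outside the lymphocyte lists.

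Of 4 genes of sinus macrophages 3 rose. Marco, a scavenger receptor of the medulla and marginal zone, was at 7.42, 40.9 and 61.3 FPKM with Glycam1 and at 0.0240, 0.189 and 7.79 FPKM without it (4.50 ± 0.47, adjusted p = 3.35e-06). The overlap came from estrus-2, with 7.79 FPKM of Marco, and the next library without Glycam1, diestrus-5, had 0.916 FPKM. Cd209b, the lectin SIGN-R1 (2.60 ± 0.44, adjusted p = 0.00041), and Cd5l (1.14 ± 0.27, adjusted p = 0.00543) also rose, and Siglec1 did not pass the test (0.56 ± 0.29, adjusted p = 0.197). In the list of adipose tissue macrophages 2 of 13 genes rose, with a list median of -0.05, a share near the 12.7% of all genes tested. These were Timd4, a receptor for phosphatidylserine that node macrophages also carry (8.13, 33.0 and 48.7 FPKM against 1.59, 2.48 and 8.59 FPKM; 2.84 ± 0.38, adjusted p = 4.36e-05), and Lyz2, the lysozyme of myeloid cells (1.11 ± 0.24, adjusted p = 0.00293). Cd163 (-0.72 ± 0.33, adjusted p = 0.138), F13a1 (-0.86 ± 0.36, adjusted p = 0.108) and the mannose receptor Mrc1 (-0.53 ± 0.30, adjusted p = 0.235) did not pass it. The mean of the list differed by -0.09 on the log2 scale (exact permutation, adjusted p = 0.856).

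Lymphotoxin and non-canonical NF-kappaB genes rose in 7 of 9 cases. Ltb, the membrane anchor of lymphotoxin, was at 10.2, 41.4 and 60.6 FPKM against 0.272, 0.415 and 2.52 FPKM (4.52 ± 0.33, adjusted p = 1.24e-07), and Lta at 0.422, 1.67 and 3.66 FPKM against 0, 0.0268 and 0.162 FPKM (1.28 ± 0.21, adjusted p = 0.000256). Tnfsf14, the ligand LIGHT (0.72 ± 0.14, adjusted p = 0.00123), and the transcription factors Nfkb2 (0.94 ± 0.15, adjusted p = 0.000183) and Relb (0.88 ± 0.13, adjusted p = 0.000122) also rose. Cell division genes were higher in 5 of 7 cases, for example Rrm2, a subunit of ribonucleotide reductase (0.76 ± 0.16, adjusted p = 0.00218), and Top2a, a topoisomerase of dividing cells (0.83 ± 0.22, adjusted p = 0.0122). Without proestrus-2 and metestrus-3, only 1 of these calls, that of Rrm2, was kept (adjusted p = 0.0347), and that of Top2a was not (adjusted p = 0.0714). A germinal centre list had 2 genes above the filter, of which Gcsam rose (0.59 ± 0.15, adjusted p = 0.01) and S1pr2 did not pass the test (-0.08 ± 0.11, adjusted p = 0.685). Dsc3, a desmosomal cadherin placed here in the list of basal epithelium, was at 0.543, 3.22 and 5.77 FPKM with Glycam1 and at 0.0160, 0.0717 and 0.0943 FPKM without it (1.84 ± 0.23, adjusted p = 2.27e-05), whereas its companions Krt14 (-0.32 ± 0.22, adjusted p = 0.352) and Trp63 (-0.21 ± 0.11, adjusted p = 0.205) did not pass the test. Sfn, a cell cycle regulator of epithelium, was the other called member (0.45 ± 0.15, adjusted p = 0.0389), and its call was lost in 9 of the 20 fits that left out 1 library, the lost ones being those without proestrus-5, estrus-1, estrus-3, estrus-4, estrus-5, metestrus-2, metestrus-3, metestrus-5 or diestrus-5. In the neutrophil list Cxcr2, a chemokine receptor, rose (1.24 ± 0.19, adjusted p = 0.00014) and the granule genes S100a8 (0.47 ± 0.29, adjusted p = 0.298) and S100a9 (0.47 ± 0.34, adjusted p = 0.374) did not pass the test.

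**Figure D3:**
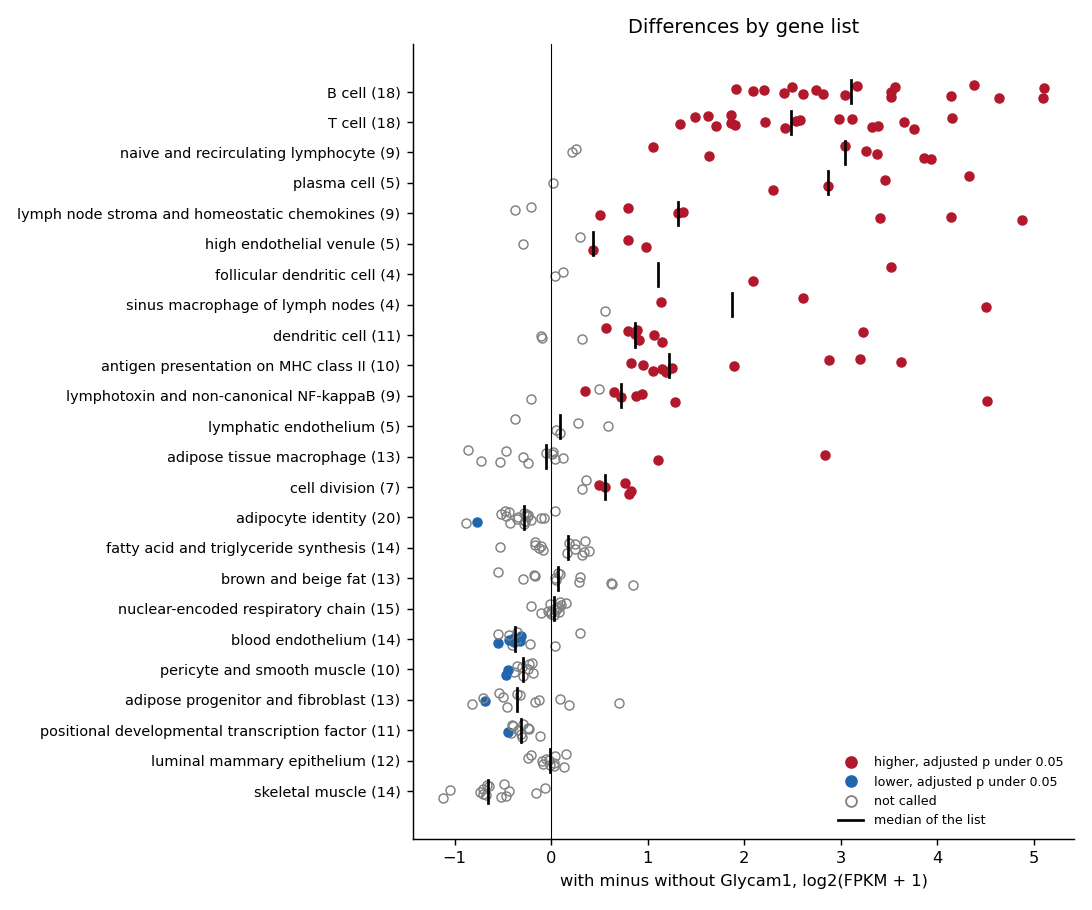
Difference between libraries with and without Glycam1 (horizontal axis, log2(FPKM + 1)) for each tested gene of 24 lists, with the number tested in parentheses, filled points for genes past an adjusted p of 0.05 and a bar at each list's median. The B and T cell lists lie wholly above 0, the adipocyte median is at -0.28 and the respiratory chain median at 0.03.

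Falls were fewer than rises, and among the lists blood endothelium had the most. The largest fall without overlap was that of Medag, which promotes the differentiation of preadipocytes. It was at 5.59, 8.63 and 13.9 FPKM with Glycam1 and at 14.9, 15.6 and 24.2 FPKM without it (-0.83 ± 0.16, adjusted p = 0.00151), and its lowest value among the 7 was that of estrus-4. Jam2, a junctional adhesion molecule of endothelium, was at 7.70, 10.6 and 12.4 FPKM against 13.4, 14.6 and 17.5 FPKM (-0.51 ± 0.07, adjusted p = 4.25e-05). Tspan2, a tetraspanin, was at 3.003 to 4.10 FPKM against 4.43 to 6.69 FPKM (-0.37 ± 0.08, adjusted p = 0.00217). Bmpr2, the type II receptor of bone morphogenetic proteins, was at 5.08 to 7.66 FPKM against 7.67 to 11.6 FPKM (-0.36 ± 0.09, adjusted p = 0.00855), with groups that nearly touched, and its adjusted p was 0.0548 without proestrus-2. The other 8 of the 12 largest falls without overlap were Klhl33, Ppp1r12b, Kazald1, Lhx6, Ptpdc1, Map4k3, Wtip and Peli3, with differences of -0.70 to -0.34.

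Larger falls overlapped between the groups and were named after their values had been seen. Apol6, an apolipoprotein L family member, was at 8.52, 20.9 and 38.1 FPKM with Glycam1 and at 33.5, 44.0 and 62.8 FPKM without it (-1.11 ± 0.23, adjusted p = 0.00214). Ogn, the matrix proteoglycan osteoglycin, was at 10.4, 33.6 and 80.2 FPKM against 43.9, 62.6 and 110 FPKM (-1.04 ± 0.34, adjusted p = 0.0394), and its call was lost without any one of proestrus-2, proestrus-3, estrus-1, estrus-2, estrus-3 or estrus-5, with an adjusted p of up to 0.212. Penk, the enkephalin precursor, was at 4.77, 8.00 and 12.4 FPKM against 9.08, 13.1 and 20.1 FPKM (-0.70 ± 0.17, adjusted p = 0.00762), and its adjusted p was 0.0525 without proestrus-2.

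The blood endothelium list had 6 of 14 genes lower and none higher, with a median log2 difference of -0.37. Of all genes tested, 5.25% were lower. Tek, the angiopoietin receptor, was at 6.27, 8.91 and 13.7 FPKM with Glycam1 and at 11.3, 14.0 and 17.4 FPKM without it (-0.55 ± 0.10, adjusted p = 0.00111). Tie1, its partner (-0.39 ± 0.10, adjusted p = 0.00877), the junction gene Esam (-0.43 ± 0.10, adjusted p = 0.00399), the sialomucin Emcn (-0.33 ± 0.07, adjusted p = 0.00345), the VEGF receptor Flt1 (-0.39 ± 0.11, adjusted p = 0.0177) and the TGF-beta coreceptor Eng (-0.31 ± 0.10, adjusted p = 0.0304) were the others. Of the 6 calls, 3 were kept without proestrus-2 and metestrus-3, those of Tek, Emcn and Esam, and 0 when libraries were scaled to equal adipocyte genes, where the list median was -0.08. Of 10 genes of pericytes and smooth muscle 2 fell, Rgs5 and Myh11, and both calls depended on single libraries. Rgs5 (-0.47 ± 0.14, adjusted p = 0.0205) lost its call without proestrus-2, estrus-3 or estrus-5, and Myh11 (-0.45 ± 0.15, adjusted p = 0.0448) lost it in 14 of the 20 fits, with an adjusted p of up to 0.256.

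Of 20 genes of adipocyte identity 1 fell, a share near the 5.25% of all genes tested. This was Plin4, which coats lipid droplets. It was at 83.3, 156 and 237 FPKM with Glycam1 and at 208, 271 and 353 FPKM without it (-0.77 ± 0.18, adjusted p = 0.00559). The median of the 20 genes was -0.28, against -0.00070 over all genes tested. Adipoq, the adiponectin gene (-0.29 ± 0.14, adjusted p = 0.181), Lep, the leptin gene (-0.89 ± 0.36, adjusted p = 0.102), and Pparg, the master regulator of adipocytes (-0.35 ± 0.12, adjusted p = 0.0588), overlapped between the groups. The metabolic lists of fat had no call. None of the 14 genes of fatty acid and triglyceride synthesis was called (median 0.18), nor any of 13 brown and beige fat genes (median 0.07) or 15 nuclear-encoded respiratory chain genes (median 0.03). Fasn, the fatty acid synthase, was at 255 to 1230 FPKM with Glycam1 and at 267 to 705 FPKM without it (0.32 ± 0.27, adjusted p = 0.467), and Ucp1, the uncoupling protein of brown fat, at 0.248 to 38.6 FPKM and at 0 to 7.94 FPKM (0.85 ± 0.65, adjusted p = 0.415). Mitochondrially encoded genes took 27.2% ± 2.7 (SD, n = 13) and 27.6% ± 2.1 (SD, n = 7) of all FPKM (exact permutation, adjusted p = 0.856).

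Fibroblast and positional genes gave 1 call each, shares near the 5.25% of all genes tested that fell. F3, tissue factor, which marks a regulatory population of stromal cells, fell by 0.68 ± 0.17 on the log2 scale (adjusted p = 0.00877) as the only call among 13 progenitor and fibroblast genes, while Dcn, the matrix gene decorin (-0.70 ± 0.24, adjusted p = 0.0518), and Cd55 (0.70 ± 0.25, adjusted p = 0.0559), a complement regulator, missed the threshold in opposite directions. All 11 positional transcription factors tested had values below 0 (median -0.31), and Hoxc6 was the 1 called (-0.45 ± 0.14, adjusted p = 0.0278), a call lost without proestrus-2, estrus-3, metestrus-3 or diestrus-5. Of 12 luminal mammary genes none was called (median -0.02), with Krt8, an epithelial keratin, at 59.8 to 164 FPKM and at 31.2 to 141 FPKM (0.14 ± 0.21, adjusted p = 0.726). Genes of nerve, mast cells and red cells gave no call, and in the skin list Sbsn, a cornified epidermis gene, fell (-0.57 ± 0.16, adjusted p = 0.0175), a call lost without proestrus-2 or estrus-3. No mesothelium gene passed the filter. None of the 14 muscle genes was called, with a median of -0.66 that was 0.46 without proestrus-2 and metestrus-3.

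The number of genes that fell depended on proestrus-2 and on how the libraries were scaled. Proestrus-2 was sequenced from another portion of its fat because the first RNA was of poor quality. It was also the only proestrus library without Glycam1, so fits that leave it out take no difference from proestrus. The median difference of the 734 genes was -0.58 in proestrus, -0.45 in estrus, -0.30 in metestrus and -0.21 in diestrus. The influence of this library and the loss of its stage cannot be told apart. Metestrus-3 had the highest level of skeletal muscle genes, with a mean log2(FPKM + 1) of 7.78, and the median of the 7 libraries without Glycam1 was 1.23. With the level of muscle genes as a covariate, 646 genes fell and 1634 rose, and 608 of the 646 were among the 734. Without proestrus-2, 305 genes fell (2.18%) and 1568 rose (11.2%). Without estrus-3, the library with the most Glycam1, 401 fell. Without both proestrus-2 and metestrus-3, 143 fell (1.02%) and 1117 rose (7.99%), and 115 of the 143 were among the 734. In that fit 2 of 5 high endothelial venule, 6 of 9 stroma, 6 of 11 dendritic cell and 2 of 4 sinus macrophage genes rose. Chst2, Il7 and Cd5l lost their calls (limma adjusted p = 0.0567, 0.0587 and 0.0547). All calls of the B cell, T cell and MHC class II lists were kept. When the libraries were scaled to equal adipocyte genes, all tested genes moved up by a median of 0.26, and 2 genes fell (0.0143%), the non-coding Snord14e and Gm22482, while 2234 rose (16%). Under that scaling the median of adipocyte identity was 0.03, which the scaling itself sets because it uses the same genes. The adjusted p was 0.0597 for Medag, 0.283 for Jam2 and 0.05 for Apol6.

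**Figure D4:**
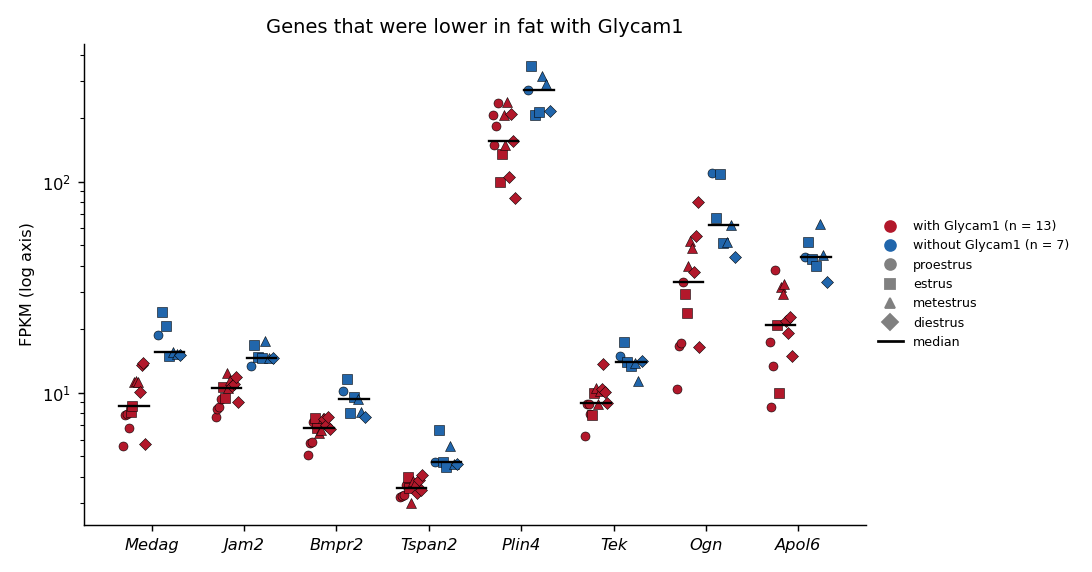
FPKM (vertical axis, logarithmic) of 8 genes that were lower with Glycam1 in each of the 20 libraries, with red points for the 13 libraries with Glycam1, blue points for the 7 without it, point shapes for the stage and a bar at each median. Medag, Jam2, Bmpr2 and Tspan2 do not overlap between the groups, and Plin4, Tek, Ogn and Apol6 do.

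Among the 13 libraries with Glycam1, which the split did not separate, the amount of Glycam1 went with several lists. The mean log2 level of T cell genes rose with log2 Glycam1 (Pearson r = 0.954, permutation p = 1e-05, the smallest it can give; Spearman rho = 0.863, permutation p = 0.00027), and r was 0.931 without diestrus-2 and proestrus-4, the libraries farthest from the median of Glycam1. Adipocyte genes went the other way (r = -0.761, permutation p = 0.00165, adjusted over 8 relations p = 0.00434; rho = -0.731, permutation p = 0.0057, adjusted p = 0.0152), with r = -0.629 without those libraries. So did respiratory chain genes (r = -0.754, adjusted permutation p = 0.00434; rho = -0.698, adjusted p = 0.02; r = -0.625 without them). Blood endothelium had r = -0.644 (adjusted permutation p = 0.0283) and rho = -0.599 (adjusted p = 0.0554), with r = -0.578 without them. Progenitor genes (r = -0.007, rho = -0.088) and adipose macrophage genes (r = 0.042, rho = -0.192) had adjusted permutation p of 0.984 for both coefficients r. B cell genes had r = 0.911 (adjusted p = 0.00028, permutation) and mitochondrially encoded genes r = -0.549 (adjusted p = 0.0679, permutation). Stage was not held fixed in these permutations, unlike in the gene and library-level tests. Stages hold 2 to 4 of these libraries each, too few for a value within a stage. All values are shares of 1 library, so the lists are not independent of each other.

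**Figure D5:**
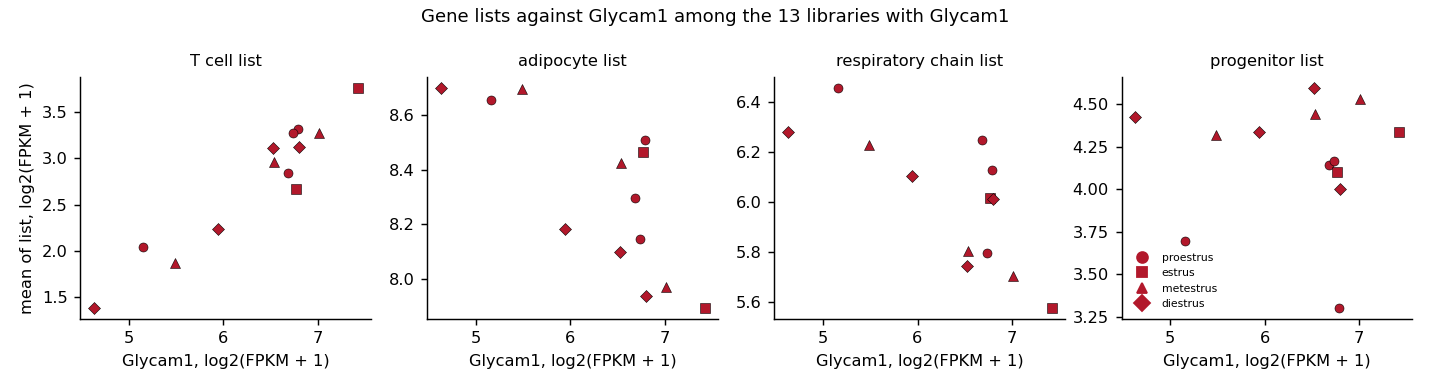
Mean level of 4 gene lists (vertical axes, log2(FPKM + 1)) against Glycam1 (horizontal axes, log2(FPKM + 1)) in the 13 libraries with Glycam1, 1 point per library with its shape for the stage. T cell genes rise with Glycam1 (r = 0.954), adipocyte genes (r = -0.761) and respiratory chain genes (r = -0.754) fall, and progenitor genes had r = -0.007.

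Gene by gene, 99.2% of the 1771 genes that rose had a positive correlation with Glycam1 within the 13 libraries, against 67.1% of all genes tested. Of the 734 genes that fell, 69.9% had a negative one, against 32.9% of all. For the 20 genes that fell without overlap, Medag and Jam2 included, it was 55.0%, against the same 32.9% of all. Their median correlation within the 13 was -0.03, against 0.34 over all genes tested.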

How the data were processed

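Total RNA of inguinal fat from 20 mice was enriched for mRNA with oligo(dT) beads and sequenced, and the authors deposited FPKM values per gene. STAR 2.5.3a, StringTie 1.3.1c and FastQC 0.11.5 stand in the submitters' processing notes. The paper also names HTSeq for the read counts of each gene. Which annotation the FPKM rest on is not given in the sources used here. Of 35841 genes, 35766 matched GENCODE M21 (GRCm38) for coordinates; 26 symbols turned into dates were kept under their identifiers. FPKM sums were 373659 to 452647. Low values did not resolve into whole reads (29.5% of 82104 within 0.1), so no count test was run.

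The members, gene lists and tests were chosen with earlier results of these data known. Genes reaching 1 FPKM in 5 or more libraries were tested on log2(FPKM + 1), a pseudocount of 1, with limma 3.58.1 in R 4.3.3, a variance trend and stage as covariate; p-values were adjusted by Benjamini-Hochberg with a threshold of 0.05. Fold changes on this scale understate those of low genes. Library-level values used an exact two-sided permutation within stages (2500 assignments), and correlations 100000 permutations that did not hold stage fixed. Each mouse is 1 library. Tested on simulated data for 13987 genes, the fit called 30 of 50 genes changed by 0.5 on the log2 scale, 45 of 50 changed by 1 and all changed by 2 or 3, with 8 false calls. The simulation drew independent normal values with the same spread in both groups, so it does not give the error rate of the calls in these data. The named genes were the 12 largest rises and falls without overlap, leaving out gene models and receptor segments, the 12 largest rises outside the lymphocyte lists, up to 4 members with the smallest p of each of 35 lists, the 10 genes most like Glycam1 and a fixed set of markers; others are said to be chosen later. A gene that this rule names is not reported here. Alternatives covered pseudocount, filter, scaling, weights, trend, covariates, the split and each library left out. Promoters were taken from RefSeq.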

Additional observations from a re-analysis of the deposited data

Results flagged for a closer look

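Some values lay apart within the 7 libraries without Glycam1, out of 25 values examined, of which chance marks about 1 in 20. Metestrus-3 had a mean log2(FPKM + 1) of skeletal muscle genes of 7.78 and a log2(FPKM + 1) of Actn3 of 9.12, both far above the other 6. Estrus-2 stood above the others for Glycam1 (2.24 on the log2(FPKM + 1) scale) and for Cd3g (0.79), and estrus-4 was the only one with any Chst4 (0.026). Glycam1 set the groups and was listed at 0 in 4 of the 7 libraries, and Chst4 was listed at 0 in 6. The rate of 1 in 20 therefore does not apply to Glycam1 and Chst4, and their values are descriptions.

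The predicted gene Gm47308 was the 1 gene whose difference between the groups varied among stages (adjusted p = 4.41e-08 by limma's F test; 640 genes had an unadjusted p under 0.05). It was at 0.130 FPKM in diestrus-5 and at 26.0 to 40.6 FPKM in each of the other 19 libraries, so the result rests on diestrus-5, the only diestrus library without Glycam1, and no gene was called once that library was left out.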

How the results depend on the processing

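Of the 173 named genes that were fitted, 0 changed sign under an alternative while past the threshold in either fit; the stricter filter tested 122 of them, and genes that were never called could change sign. The counts of genes that rose and fell were 1771 and 734, and they were 1060 and 462 with the stricter filter of 5 FPKM, which tests 7646 genes, and 1117 and 143 without proestrus-2 and metestrus-3 together. The genes that fell numbered 2 with adipocyte scaling. Leaving out 1 library at a time gave 1449 to 2040 genes that rose and 305 to 924 that fell; the lowest of the latter was without proestrus-2 and the highest without diestrus-2. The replicate block gave 1468 genes that rose and 489 that fell. No label pairs the mice by replicate number. Deviations of same-numbered libraries had a mean r of -0.08 (-0.61 to 0.67 over 30 pairs), and 2 of 20 libraries matched best with their own number. Genes with an interaction of group and stage were 2 with a pseudocount of 0.1 and 0 to 37 over the single libraries left out, the highest without metestrus-4. The naive to tissue-resident ratio had a difference of 0.58 to 0.99 over single libraries left out, with an adjusted p of 0.0035 to 0.28 by exact permutation, and past the threshold with values of 0.70 to 0.99; without S1pr1, Klf2, Areg and Gata3 it was 3.07. The B to T cell ratio turned from -1.44 to 0.54 without Ighm and Ighd. The table holds no read counts, so low values such as those of Chst4 and Fut7 have no stated precision.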
